A study of Mus musculus with 6 samples.

Results

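The syndecans and glypicans are the 2 families of cell-surface proteoglycans that carry heparan sulfate. Described here are the mRNAs of 9 of these genes (Sdc1, Sdc2, Sdc3, Sdc4, Gpc1, Gpc2, Gpc3, Gpc4 and Gpc6), taken by symbol from an expression table of 55401 genes. RNA was sequenced from NIH-3T3, an established line of mouse embryonic fibroblasts with the genotype WT, and from its mutated derivative MU, with 3 libraries of each. Both were grown in the same serum-containing medium with no other treatment named, and the study's title concerns errors in mitochondrial translation. The labels give neither the mutated gene, nor whether MU is a single clone, nor whether the libraries of a group came from separate cultures, so the p-values below measure only the spread between these libraries, which may be technical.

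Syndecans span the membrane once. Their outer part bears the sugar chains, can be shed by proteases and binds growth factors and matrix, while their short cytoplasmic tail connects to the cytoskeleton and to PDZ-domain adaptors. Glypicans have no cytoplasmic part: a glycosylphosphatidylinositol (GPI) lipid anchors them to the outer leaflet, and they are known for regulating Wnt, Hedgehog, FGF and BMP signalling. In fibroblasts, Sdc4 is a component of focal adhesions, where it acts with integrins on fibronectin.

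What the 4 syndecans share is plainest at the end of their coding sequence, so the last 60 coding bases of each are shown, 5′ to 3′, with the last 4 codons in capitals. These codons encode the tail that binds PDZ domains. All 4 stretches lie in the last exon (exon 5 of 5) in GENCODE M21, on build GRCm38, at chr12:8791745-8791804 on the plus strand for Sdc1, chr15:33032478-33032537 on the plus strand for Sdc2, chr4:130822747-130822806 on the plus strand for Sdc3 and chr2:164426089-164426148 on the minus strand for Sdc4.
Sdc1: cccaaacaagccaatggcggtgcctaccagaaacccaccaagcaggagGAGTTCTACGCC
Sdc2: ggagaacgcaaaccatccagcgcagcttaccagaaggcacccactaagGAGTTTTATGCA
Sdc3: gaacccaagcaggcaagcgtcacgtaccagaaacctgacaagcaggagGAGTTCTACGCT
Sdc4: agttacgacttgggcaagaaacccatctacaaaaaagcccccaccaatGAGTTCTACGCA
The last 4 residues were the same in all 4 genes. Over the 60 bases, Sdc1 and Sdc3 had 37 identical positions and Sdc1 and Sdc2 had 21, the most and the fewest of any pair.

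Whole coding sequences put Gpc4 and Gpc6 closest among the glypicans, with 63% identical residues in their translations. Gpc1 shared 45.4% with Gpc6 and 42.6% with Gpc4. Among syndecans the closest pair was Sdc2 and Sdc4, at 39.3%. The longest identical run of bases between the transcripts of any pair within a family was 29 bases, between Sdc3 and Sdc4, and that of Gpc4 and Gpc6 was 17 bases.

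The libraries' log2(TPM + 1) values correlated at 0.949 to 0.976 within a group and at 0.937 to 0.945 between groups. Depth is unknown, because TPM (reads per transcript length, scaled to a common total in each library) keeps none. Deviations from the group mean followed gene GC content most in WT 2 (Spearman 0.446 across genes) and WT 3 (−0.365). Of 8 fibroblast markers, 7 were tested and 4 were higher in MU (Col1a1, Col1a2, Fn1 and Thy1), with a summed TPM of 8389 to 9688 in WT and 10940 to 11440 in MU. Lum stood at 0.812 to 1.68 TPM in WT and at most 0.162 in MU. The summed TPM was at most 0.666 for 6 epithelial markers, 3.47 for 5 endothelial ones (Cdh5 fell), 6.29 for 6 muscle ones (Ttn rose), 6.74 for 6 of neurons and glia and 10.97 for 6 of leukocytes (Csf1r rose). Ttn reached 1 TPM only in MU and Cdh5 only in WT, so each was tested through that group alone. Myod1, Myog, Myh6, Adgre1 and Cldn4 were listed at 0 throughout, and the part of any marker list in the results below was not tested.

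Among the 9 genes the largest differences were in 2 glypicans that moved in opposite directions, Gpc1 down and Gpc6 up. In MU, Gpc6 rose about 3-fold (2.99 times the WT mean), Gpc4 rose 1.35-fold, Gpc1 fell to 30.0 TPM from 71.5, and Sdc1 fell to 40.03 from 62.7. Of the 9 genes, 7 reached 1 TPM in 3 or more libraries and were tested; 2 were called higher, 2 lower and 3 did not pass. Calls are at a limma adjusted p (Benjamini-Hochberg over all 14209 genes tested) under 0.05, a bar that 18.8% of those genes passed, 7.12% higher and 11.6% lower in MU. The WT and MU libraries did not overlap for 5 of the 7 tested members, against 39.2% of all tested genes. The median difference was −0.37 on the log2(TPM + 1) scale over the 7 members and −0.06 over all tested genes. With only 7 members these counts describe the genes listed and no more. In bulk RNA, fewer cells making a transcript and less of it per cell cannot be told apart.

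**Figure D1:**
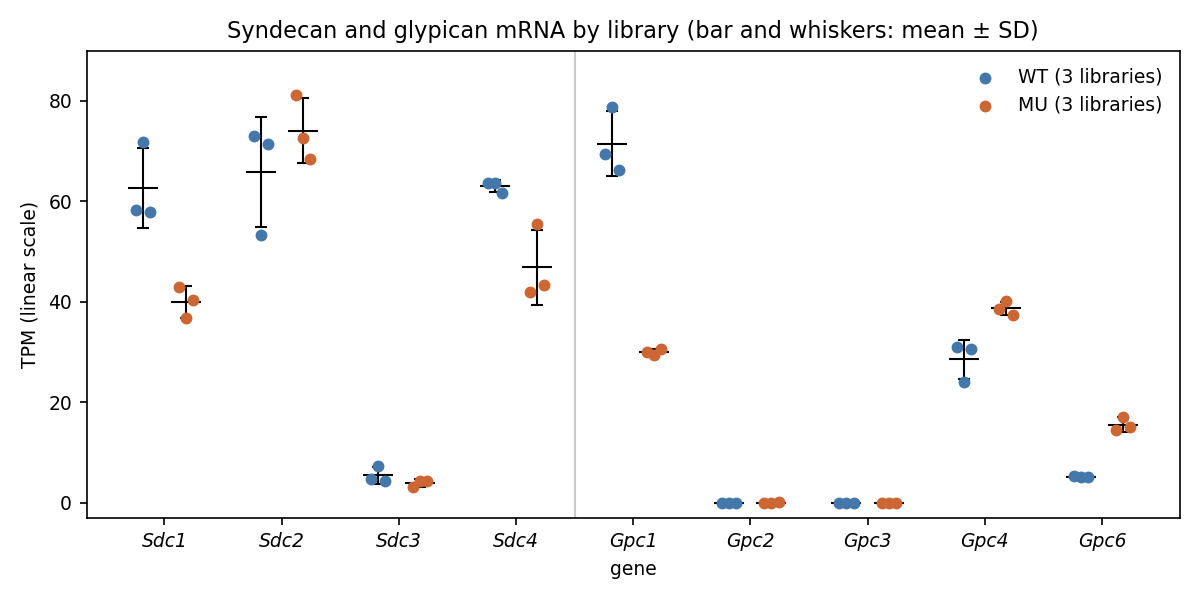
TPM (linear axis) of each of the 9 genes in the 3 WT libraries (blue) and the 3 MU libraries (orange), with the mean and SD of each group as a bar and whiskers. The groups are apart for Sdc1, Sdc4, Gpc1, Gpc4 and Gpc6, with Gpc1 falling from a mean of 71.5 to 30.0 TPM and Gpc6 rising from 5.20 to 15.6.

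Gpc1 is a widely expressed glypican and a co-receptor for FGF2 (ENSMUSG00000034220.7, GRCm38 chromosome 1, 92831645 to 92860779, plus strand). Its TPM was 69.5, 78.8 and 66.2 in WT against 30.0, 29.4 and 30.5 in MU. Every MU library was below every WT library, and the MU libraries lay close together. The means were 71.5 ± 6.55 and 30.0 ± 0.549 TPM (SD, n = 3 each), and the difference was −1.22 on the log2(TPM + 1) scale (SE 0.092, 95% interval −1.44 to −1.003, limma adjusted p = 0.000704). Of all tested genes, 4.57% differed by more in either direction. The call held in all 19 alternatives tried, at differences between −1.28 and −1.12.

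Gpc6, the closest relative of Gpc4 and a glypican with a role in skeletal growth, moved the other way (ENSMUSG00000058571.11, chromosome 14, 116925315 to 117976544, plus strand). Its TPM was 5.29, 5.16 and 5.16 in WT and 14.4, 17.2 and 15.1 in MU. The WT libraries lay almost on one value and every MU library was well above them. Means were 5.20 ± 0.0785 and 15.6 ± 1.43 TPM (SD, n = 3 each), a difference of 1.41 (SE 0.111, 95% interval 1.15 to 1.68, limma adjusted p = 0.000813). Of all tested genes, 3.18% differed by more. It too was called in all 19 alternatives, at 1.01 to 1.56.

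Gpc4, known for modulating growth factor signalling and for inducing synapses when released by astrocytes, rose as well, by less (ENSMUSG00000031119.4, chromosome X, 52053021 to 52165252, minus strand). WT libraries held 31.1, 24.1 and 30.6 TPM and MU libraries 38.6, 40.1 and 37.4. All MU values exceeded all WT values, and WT 2 was the lowest of the 6. From means of 28.6 ± 3.91 and 38.7 ± 1.37 TPM (SD, n = 3 each) the difference was 0.43 (SE 0.118, 95% interval 0.15 to 0.71, limma adjusted p = 0.0474). The call was at the edge of the threshold: it was lost in 9 of 19 alternatives, among them those with no filter on low values (0.0911), without the intensity trend (0.0687), and without WT 1, WT 3 or any 1 MU library (0.0525 to 0.158, all limma adjusted p).

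The other 2 glypicans were close to undetected. Gpc2, a glypican of developing neurons (ENSMUSG00000029510.15, chromosome 5, 138273655 to 138280005, minus strand), was listed at 0 in 5 libraries and at 0.103 TPM in MU 3. Gpc3, which restrains embryonic growth (ENSMUSG00000055653.13, chromosome X, 52272426 to 52613950, minus strand), was listed at 0 in the same 5 libraries and at 0.0348 TPM in MU 3. Neither was tested.

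Among the syndecans only Sdc1 passed. Sdc1 is the syndecan typical of epithelia and plasma cells and a substrate of matrix metalloproteases (ENSMUSG00000020592.14, chromosome 12, 8771323 to 8793715, plus strand). It stood at 58.2, 71.8 and 57.9 TPM in WT and 43.0, 36.7 and 40.3 in MU. No MU library reached the lowest WT library. The means were 62.7 ± 7.93 and 40.03 ± 3.16 TPM (SD, n = 3 each), and the difference was −0.63 (SE 0.116, 95% interval −0.91 to −0.35, limma adjusted p = 0.0139). The call was lost in 3 of 19 alternatives, among them those without MU 2 (limma adjusted p = 0.0651) and without MU 3 (0.0561), at differences of −0.57 and −0.64.

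Sdc4, the focal adhesion syndecan (ENSMUSG00000017009.3, chromosome 2, 164424247 to 164443887, minus strand), did not pass by a small margin. Its TPM was 63.6, 63.8 and 61.7 in WT and 42.0, 55.5 and 43.3 in MU. The groups did not overlap, and MU 2 stood apart from the other MU libraries, nearer to WT. Means of 63.0 ± 1.16 and 46.9 ± 7.45 TPM (SD, n = 3 each) gave a difference of −0.43 (SE 0.12, 95% interval −0.72 to −0.14, limma adjusted p = 0.0513). It was called lower when only genes with a TPM of at least 5 were tested (0.0439) and without MU 2 (0.0336, both limma adjusted p).

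Sdc2, the main syndecan of mesenchymal cells (ENSMUSG00000022261.6, chromosome 15, 32920723 to 33034935, plus strand), had overlapping groups. WT libraries held 73.0, 53.2 and 71.5 TPM and MU libraries 81.1, 72.6 and 68.5. WT 2 was low and the other 5 were alike. The difference was 0.18 (SE 0.143, 95% interval −0.16 to 0.52, limma adjusted p = 0.439), an interval that still allows a rise of the size seen for Gpc4.

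Sdc3, a syndecan best known from neural tissue (ENSMUSG00000025743.14, chromosome 4, 130792537 to 130826319, plus strand), was the least abundant syndecan. It stood at 4.71, 7.40 and 4.35 TPM in WT and 3.09, 4.42 and 4.36 in MU, with WT 2 the highest. The groups overlapped, and the difference was −0.37 (SE 0.221, 95% interval −0.90 to 0.16, limma adjusted p = 0.296).

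The WT library 2 held the highest Gpc1, Sdc1 and Sdc3 values of all 6 libraries and the lowest Gpc4 and Sdc2 values. The longest transcripts of these genes are 59.1%, 55.2%, 58.7%, 50.8% and 41.6% G and C, in the same order. After correction of each library for GC content and length the differences were −1.15 for Gpc1, −0.56 for Sdc1 and 0.48 for Gpc4, each with a limma adjusted p of at most 0.0297. Without WT 2 they were −1.15, −0.53 and 0.32, and all 3 still passed, as did Gpc6 at 1.41. The differences of Sdc2 and Sdc3, which did not pass either way, went from 0.18 to 0.03 and from −0.37 to −0.17 without WT 2. After the GC content and length correction they were 0.25 (limma adjusted p = 0.0748) and −0.29 (0.301).

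**Figure D2:**
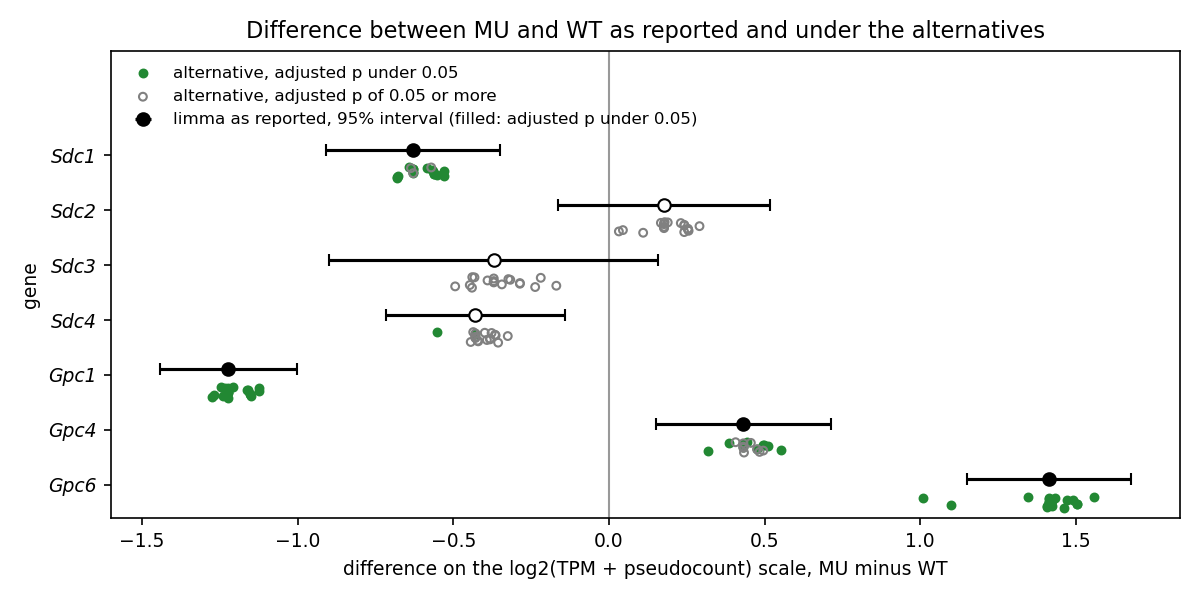
Difference between MU and WT on the log2(TPM + pseudocount) scale for the 7 tested genes, with the reported limma value and its 95% interval in black and the alternative settings as small points, filled where the adjusted p is under 0.05. The points of Gpc1 (−1.28 to −1.12) and Gpc6 (1.01 to 1.56) are all filled, those of Gpc4 and Sdc1 are mixed, and those of Sdc2 and Sdc3 are all open.

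The authors' deposited table gave the same directions for the 7 tested genes. It listed log2 fold changes of −1.17 for Gpc1 (adjusted p = 1.93e-18), 1.56 for Gpc6 (2.75e-24), 0.48 for Gpc4 (0.00182) and −0.57 for Sdc1 (0.000747) in the authors' deposited table's own test. In the authors' deposited table Sdc4 was called lower, at −0.36 with an adjusted p of 0.0449, where the limma fit here missed the threshold. Sdc2 and Sdc3 had adjusted p-values of 0.286 and 0.253 in the authors' deposited table and were not called there.

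The order of the genes by TPM, which is per transcript length and so can be set side by side between genes, differed between the lines. In WT the order was Gpc1, Sdc2, Sdc4 and Sdc1 (means of 71.5 to 62.7 TPM), then Gpc4 at 28.6, Sdc3 at 5.49 and Gpc6 at 5.20. The first 4 overlapped with their neighbours in this order, and so did Sdc3 and Gpc6. In MU the order was Sdc2 at 74.1 TPM, Sdc4 at 46.9, Sdc1 at 40.03, Gpc4 at 38.7, Gpc1 at 30.0, Gpc6 at 15.6 and Sdc3 at 3.96. There only Sdc4 with Sdc1 and Sdc1 with Gpc4 overlapped. By group mean Gpc1 thus went from rank 1 to rank 5, and Gpc6 passed Sdc3. Both of these WT orders rested on WT 2. There Gpc1 stood above Sdc2 (78.8 against 53.2 TPM) and Sdc3 above Gpc6 (7.40 against 5.16). In WT 1 and WT 3 Sdc2 was above Gpc1 (73.0 against 69.5 and 71.5 against 66.2 TPM). Gpc6 was above Sdc3 in the same libraries (5.29 against 4.71 and 5.16 against 4.35).

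Summed over each family, TPM was lower in every MU library. The 4 syndecans summed to 199.5, 196.2 and 195.5 TPM in WT and 169.3, 169.3 and 156.5 in MU. The 5 glypicans summed to 105.9, 108.1 and 102.0 TPM in WT and 83.0, 86.7 and 83.1 in MU. Both families were lower under each of 3 other scalings, with MU at 0.876 to 0.901 of WT for syndecans and 0.837 to 0.851 for glypicans, against 0.837 and 0.8 as deposited. Glypicans made up 34.8% ± 0.634 of the 9-gene sum in WT and 33.8% ± 0.892 in MU (SD, n = 3 each), and the libraries overlapped.

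Within the glypicans the shares of all 3 expressed genes were apart between the groups. Gpc1 supplied 65.6%, 73.0% and 64.9% of glypican TPM in WT and 36.2%, 33.9% and 36.7% in MU. Gpc4 went from 27.2% ± 4.29 to 45.9% ± 0.816, and Gpc6 from 4.94% ± 0.149 to 18.4% ± 1.24 (SD, n = 3 each). Gpc4 stood at 0.405 times Gpc1 in WT and at 1.29 times in MU, so the most abundant glypican mRNA was Gpc1 in every WT library and Gpc4 in every MU library. Among the syndecans, Sdc2 held 36.6%, 27.1% and 36.6% of the family's TPM in WT and 47.9%, 42.9% and 43.8% in MU. Sdc1 held 31.8% ± 4.16 in WT and 24.3% ± 2.25 in MU, without overlap, and the shares of Sdc4 and Sdc3 overlapped. These shares follow from the levels above and are given as a description.

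**Figure D3:**
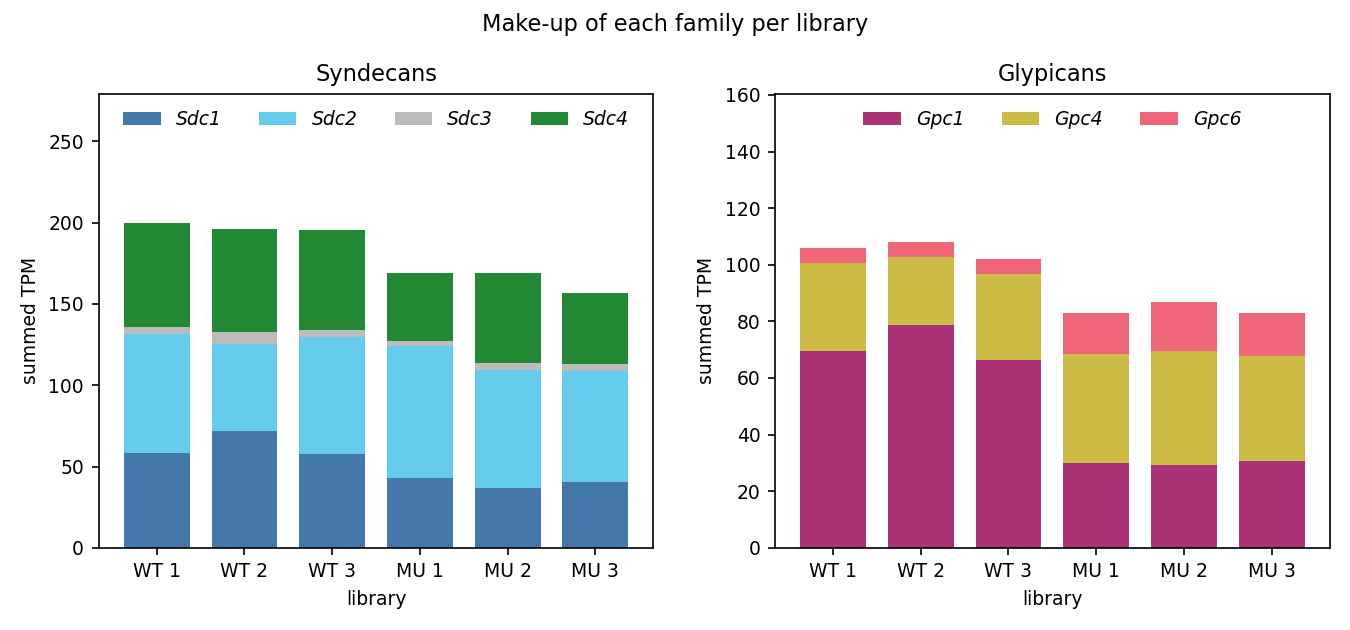
Summed TPM per library (bars start at 0), stacked by gene, for the 4 syndecans on the left and for Gpc1, Gpc4 and Gpc6 on the right, with Gpc2 and Gpc3 at or near 0 and not drawn. In the glypican bars the Gpc1 part shrinks from 66.2 to 78.8 TPM in WT to 29.4 to 30.5 in MU, while the Gpc4 and Gpc6 parts are taller in each MU bar than in any WT bar.

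The genomic surroundings of the called genes were compared with them, using up to 20 tested protein-coding genes on each side. Around Gpc6 the median difference of 39 neighbours was 0.26, and 9 were called higher and 1 lower. Relative to the median of all tested genes the neighbours stood 0.31 higher, and once that was subtracted Gpc6 differed by 1.10 (limma adjusted p = 0.00215). Its nearest tested neighbour on the right, Tgds, an enzyme acting on nucleotide sugars, was at 16.5 ± 3.02 TPM in WT and 17.0 ± 1.25 in MU (SD, n = 3 each). On the left the nearest, Trim52, began across a gap of 10789456 bases and did not pass either (difference 0.26). The other left neighbours lay farther still, up to 29.8 Mb between start sites. The median that was subtracted thus drew in part on distant genes.

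Gpc4 and Gpc3 lie side by side on chromosome X, 107174 bases apart, with only Gpc4 above 1 TPM. Over the chromosome X genes tested the median difference was −0.23, and 28.9% were above 0, so Gpc4 rose where most genes of the chromosome were on the lower side. The nearest tested protein-coding gene left of Gpc4, 371165 bases away, was Hs6st2, which adds sulfate to the 6-O position of heparan sulfate. Hs6st2 stood at 18.9, 14.9 and 20.6 TPM in WT and was listed at 0 in all 3 MU libraries. It was thus tested through the WT libraries alone. On the right Phf6 did not pass (−0.27).

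Gpc1 had neighbours on both sides of 0, with a median of −0.01 over 40 genes, 3 called higher and 4 lower. Cops9 and Capn10 next to it did not pass (−0.19 and 0.07). Around Sdc1 the median was −0.13, with 3 higher and 3 lower, and its flanking genes Pum2 (−0.17) and Laptm4a (−0.08) did not pass. The median around Sdc2 was 0.08, and its left neighbour Sema5a, an axon guidance protein, fell from 14.3 ± 2.67 to 5.44 ± 0.457 TPM (SD, n = 3 each, limma adjusted p = 0.00401) while its right neighbour Cpq did not pass (0.28). Around Sdc4 and Sdc3 the medians were −0.09 and −0.08, and neither the genes flanking Sdc4 (Slpi and Sys1) nor Mecr, to the right of Sdc3, passed. No annotated gene that overlaps a member exceeded 0.512 TPM in any library (Gm29480, antisense within Gpc1).

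**Figure D4:**
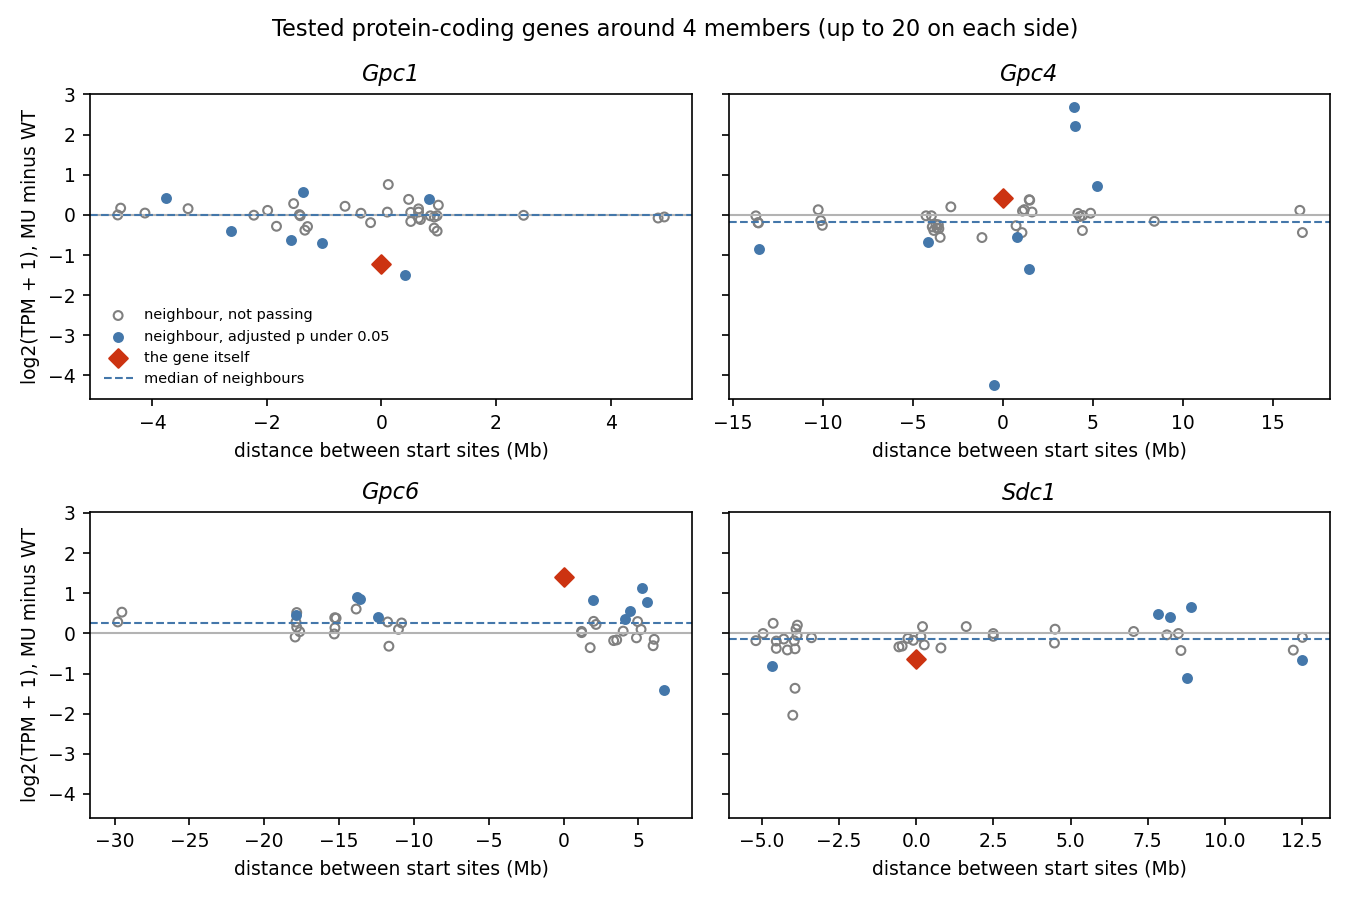
Difference between MU and WT on the log2(TPM + 1) scale for tested protein-coding genes around Gpc1, Gpc4, Gpc6 and Sdc1, against the distance between start sites in Mb, with called neighbours filled and the median of the neighbours dashed. Gpc1 and Gpc6 lie far from their neighbours' medians of −0.01 and 0.26, and the lowest point beside Gpc4 is Hs6st2, listed at 0 in every MU library, so its height is set by the pseudocount.

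Promoter windows from RefSeq (assembly GRCm38.p6) were matched for 6 of the 9 genes: Sdc1, Sdc3, Sdc4, Gpc2, Gpc3 and Gpc4. Sdc1 and Sdc4 are shown because they are the syndecans whose groups did not overlap. The sequence ends at the base before the start or, for Sdc1, before an annotated exon, and the GC box GGGCGG, searched on both strands, is in capitals. The windows are chr12:8771146-8771322 on the plus strand and chr2:164443189-164443438 on the minus strand, and the latter lies between exons of Sdc4 as GENCODE draws the gene.
Sdc1: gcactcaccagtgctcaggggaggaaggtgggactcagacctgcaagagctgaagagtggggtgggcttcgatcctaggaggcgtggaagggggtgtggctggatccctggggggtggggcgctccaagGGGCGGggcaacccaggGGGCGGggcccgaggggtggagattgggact
Sdc4: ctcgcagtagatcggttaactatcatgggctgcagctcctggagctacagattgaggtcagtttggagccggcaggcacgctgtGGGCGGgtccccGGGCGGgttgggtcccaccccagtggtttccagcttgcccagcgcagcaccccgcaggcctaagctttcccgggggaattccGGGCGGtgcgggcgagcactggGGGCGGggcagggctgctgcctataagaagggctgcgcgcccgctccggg
The Sdc1 stretch holds 2 GC boxes and the Sdc4 stretch 4. Over the 250 bases before the start, all 6 members had at least 1 GC box, found in 32.7% of 32851 such windows, and none had TATAAA, found in 12.4%. None held TGANTCA (6.75% of windows), CACGTG (6.02%) or TGACGTCA (1.55%), and Gpc4 alone held GGAATG (12.6%). Windows with a GC box thus included those of Gpc4 (called higher), Sdc1 (called lower) and Gpc2 and Gpc3 (at or near 0).

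Beyond the core proteins, 7 lists of genes that make, cut, bind or act with these proteoglycans were read from the same limma fit. Together they held 203 genes, of which 143 were tested and 20 were called higher and 33 lower, 37.1% against the 18.8% of all tested genes. The lists were chosen with earlier results of these data known, so the share supports nothing by itself.

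Among enzymes that build the chains, calls were as frequent as over all genes (18.8%). Of 27 genes for linker and heparan sulfate synthesis, 16 were tested, none was higher and 3 were lower, with a median of −0.19. These were Hs6st2, described above, Hs2st1, the 2-O-sulfotransferase, which fell from 41.4 ± 6.92 to 26.0 ± 1.55 TPM (SD, n = 3 each, difference −0.64, limma adjusted p = 0.0225), and Ndst1, which starts chain sulfation (−0.37, adjusted p = 0.0279). Ndst1 was named after its values were seen. The chain polymerase genes Ext1 and Ext2, named for their role with values known, did not pass (−0.21 and 0.19). The calls of Hs2st1 and Ndst1 were lost in 7 and 9 alternatives. Without WT 1 or any 1 MU library 1 gene of the list was lower and without WT 2 it was 5, while 1 was higher after quantile normalization or GC and length correction.

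Of 28 genes for shedding, trimming and release, 17 were tested, with 4 higher, 3 lower and a median of 0.03. Adamts1, a secreted metalloprotease that can cut syndecan ectodomains, rose from 27.7 ± 2.59 to 86.4 ± 3.65 TPM (difference 1.61, limma adjusted p = 0.000337, n = 3 each). Among the metalloprotease inhibitors, Timp3 rose from 82.4 ± 5.75 to 216.3 ± 6.15 TPM (1.38, adjusted p = 0.000338 with limma) and Timp1 fell from 119.3 ± 15.7 to 48.6 ± 0.948 (−1.27, adjusted p = 0.0013 with limma). Plau (1.25), a plasminogen activator, and Sulf2 (1.03), which removes 6-O-sulfate outside the cell, rose as well, and Mmp2 (−0.35) and Plat (−0.46) fell. Sulf2 was low in both groups, at 0.362 to 0.746 TPM in WT and 1.84 to 2.67 in MU. It reached 1 TPM only in MU, so it was tested through those libraries alone. The calls of Mmp2, Plat and Sulf2 were lost in 8, 13 and 5 alternatives, and without WT 1 or any 1 MU library 1 gene of the list was lower. Plau, Sulf2 and Plat were named after their values were seen. The main known sheddases Adam10, Adam17 and Mmp14, named for their role, differed by 0.04, −0.14 and 0.03 and did not pass. Notum, another gene of this list, was at 0 in all libraries.

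Of 28 genes listed as possible cytoplasmic partners of syndecans, 26 were tested, with 1 higher, 7 lower and a median of −0.23. Itgb1, among the 7 lower, is in the receptor list as well. The counts of the partner list changed with the number of libraries. Without MU 1, MU 2 or MU 3 none was higher and 1 was lower, whichever was left out. Calls over all genes fell too, from 2667 to 1158, 1071 and 1203. Without WT 1 it was 1 higher and 2 lower in the list, and without WT 2 it was 1 and 10. There were 4 lower with no filter and with mtDNA-encoded genes left out of the scaling. Actn1, which crosslinks actin, rose from 259.4 to 347.8 TPM (0.43, limma adjusted p = 0.0322), a call lost in 9 alternatives. Cytip, a PDZ-domain scaffold of cytohesins, stood at 10.0, 10.2 and 9.04 TPM in WT and at 0.703, 0.118 and 0.691 in MU (−2.86, limma adjusted p = 0.00062). It reached 1 TPM only in WT, so it was tested through those libraries alone. Moesin (Msn), which links membrane proteins to actin, fell from 224.3 to 160 TPM (−0.48, limma adjusted p = 0.00999), a call lost in 5 alternatives. Syntenin (Sdcbp), the adaptor that binds the tail shown above, fell from 170.3 ± 20.3 to 120.1 ± 5.95 TPM (−0.49, limma adjusted p = 0.0242, n = 3 each) and was named for that role after its values were seen. Its call was lost in 7 alternatives.

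Of 31 genes that make and remodel the glypican anchor, 30 were tested, with 4 higher, 3 lower and a median of −0.05. Without WT 1, MU 2 or MU 3 it was 1 higher and 0 lower, without MU 1 it was 1 and 1, without WT 2 it was 3 and 5, and without WT 3 it was 2 and 3; with no filter it was 1 and 3. Pigl, which acts early in anchor synthesis, rose from 5.38 ± 0.516 to 10.4 ± 0.929 TPM (0.84, limma adjusted p = 0.00672, n = 3 each). Pgap2, which remodels the anchor's lipid, rose too (0.48, limma adjusted p = 0.0312), as did Dpm1 and Pigp (0.68 and 0.44, named after their values were seen). Piga, the catalytic subunit of the first step, fell from 13.4 ± 1.63 to 7.63 ± 0.699 TPM (−0.73, limma adjusted p = 0.0124, n = 3 each). Tmed2, a cargo receptor for anchored proteins, fell (−0.61, limma adjusted p = 0.0151), and so did Tmed10 (−0.43, named after its values were seen). The calls of Pgap2, Piga and Tmed2 were lost in 7, 4 and 6 alternatives, and those of Dpm1, Pigp and Tmed10 in 11, 9 and 9.

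Of 14 other proteoglycans that carry heparan sulfate or carry chains part of the time, 9 were tested, with 2 higher and 1 lower. Nrp1, a semaphorin and VEGF co-receptor, rose from 26.9 ± 1.49 to 47.1 ± 1.28 TPM (0.78, limma adjusted p = 0.00221, n = 3 each), and Fgfr2, an FGF receptor that can carry a chain, rose from 14.3 ± 0.545 to 31.9 ± 1.89 (1.10, adjusted p = 0.00101 with limma). Cd44, the hyaluronan receptor, fell from 119.8 ± 10.2 to 80.0 ± 5.4 TPM (−0.57, limma adjusted p = 0.011), a call lost in 2 alternatives, the one without MU 3 (0.0563) among them. The basement membrane proteoglycans Hspg2 and Agrn did not pass (−0.27 and 0.24), and Gpc5, the sixth glypican, was listed at 0 in 5 libraries and at 0.0496 TPM in MU 1; these 3 were named for their role.

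Ligands that bind heparan sulfate held the largest share of calls of the 7 lists: of 42 genes, 22 were tested, with 4 higher, 11 lower and a median of −0.70. Over the alternatives 4 to 5 were higher and 10 to 13 lower. Thbs1, a matricellular protein that binds syndecan and integrin receptors, rose from 55.0 ± 2.72 to 205.6 ± 3.33 TPM (1.88, limma adjusted p = 8.17e-05, n = 3 each). Pleiotrophin (Ptn), a ligand of Sdc3, rose from 82.4 ± 5.00 to 234.3 ± 3.41 TPM (1.498, limma adjusted p = 0.000226). The chemokine gene Cxcl12 stood at 17.6, 17.3 and 15.9 TPM in WT and at 1.05, 0.922 and 0.919 in MU (−3.19, limma adjusted p = 7.8e-05). Hgf, the ligand of the Met receptor, fell from 24.6 ± 2.10 to 3.64 ± 0.535 TPM (−2.47, limma adjusted p = 0.000226, n = 3 each). Fgf7 and Fn1 also rose (0.94 and 0.96, named after their values were seen).

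Receptors that act with these proteoglycans went both ways, with 6 higher and 6 lower among 25 tested of 35 and a median of 0.09. Without MU 1 it was 3 higher and 4 lower, without MU 2 it was 4 and 3, and without MU 3 it was 3 and 4. Itgb5, the partner of the alpha-v integrin, rose from 34.3 ± 1.55 to 71.4 ± 1.53 TPM (1.04, limma adjusted p = 0.000671, n = 3 each). Of the FGF receptors Fgfr2 rose, as given above, and Fgfr1 fell from 79.0 ± 0.776 to 54.3 ± 2.48 TPM (−0.53, limma adjusted p = 0.00562), a call lost after position centring (0.0511). Ptprf, a receptor phosphatase that binds heparan sulfate proteoglycans, fell from 14.4 ± 1.83 to 7.37 ± 0.195 TPM (−0.87, limma adjusted p = 0.00562).

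For each called member, the 2 protein-coding genes with the most similar profile were found by Pearson r over the 6 libraries on the log2(TPM + 1) scale, among 9456 genes with a mean TPM of at least 5. The 6 libraries form 2 groups, so any gene that differs between them scores high, and r is given as a description. Closest to Gpc1 were Rgs16 (r = 0.9993), a regulator of G-protein signalling that went from a mean of 39.2 to 1.89 TPM, and Iffo2 (0.9990, 8.27 to 3.49 TPM). Closest to Gpc6 were Adamts2 (0.9968, 9.21 to 23.1 TPM), the procollagen N-proteinase, and Pde8b (0.9966, 6.80 to 36.6 TPM), a cyclic AMP phosphodiesterase. Gpc4 was most like Naip2 (0.9962, 6.16 to 8.24 TPM) and Slc38a6 (0.9954, 39.0 to 62.7 TPM), and Sdc1 most like Riox1 (0.9952, 12.8 to 5.83 TPM) and Rtkn (0.9922, 11.2 to 5.05 TPM). Naip2 did not pass (limma adjusted p = 0.098), and the calls of Slc38a6 and Riox1 were lost in 6 and 3 alternatives.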

How the data were processed

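Per the labels, libraries were prepared from poly(A) RNA with a strand-marking kit. The submitters' processing notes name build mm10 and DESeq2 1.20.0, featureCounts 1.5.0-p3, HISAT2 2.05.0 and FastQC 0.11.4. The role of each, the strand setting, the annotation and the TPM calculation were not given in the sources used here. Per gene and library, the authors deposited log2(TPM + 1). They also deposited a comparison table, with group means in TPM, the log2 fold change, and each p-value before and after adjustment. Depth is unknown, so no counting interval was computed.

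Values were returned to TPM, and log2(TPM + 1), a pseudocount of 1, was tested with limma 3.58.1 in R 4.3.3 (two-sided, intensity trend, no covariate) for genes that reached 1 TPM in 3 or more libraries. A call needs an adjusted p (Benjamini-Hochberg over 14209 genes) under 0.05. Differences on this scale understate the change of low genes. The test was tried on simulated data first. Annotation is GENCODE M21 (GRCm38, the assembly of mm10), matched for 55141 of 55401 genes; coding identities come from each gene's longest coding sequence there and promoters from RefSeq.

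The members and lists were chosen with earlier results of these data known. Named genes are the 9 members; in each list the 2 higher and 2 lower genes with the smallest adjusted p among those passing; the 2 most similar profiles of each called member; and the nearest tested protein-coding neighbours. Others are said to be named outside this rule. A neighbour that the rule selects is left out here. The 19 alternatives were no filter, a TPM minimum of 5, pseudocounts of 0.1 and 5, 3 scalings (without mtDNA-encoded genes, median-of-ratios, quantile), limma untrended or robust, a replicate block, GC content and length correction (loess, span 0.3) with and without the block, position centring (the median difference of up to 20 neighbours per side, relative to all genes, taken off MU), and each library left out.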

Additional observations from a re-analysis of the deposited data

How the results depend on the processing

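Each gene named as higher or lower kept its direction in every one of the 19 alternatives that tested it, while several that did not pass (Ext2, Adam10, Mmp14, Tgds and Cops9 among them) crossed 0. The number of member calls went from 4 to 2 with a replicate block, 3 with no filter or without the trend, and 5 with a TPM minimum of 5. Leaving out 1 library gave 2 to 4, with 2 without MU 3. These counts include Sdc4 with the TPM minimum of 5 and without MU 2. Without MU 2 the calls of Sdc1 and Gpc4 were lost. The 53 calls over the related lists became 30 with the replicate block and 30 to 61 when 1 library was left out (32, 31 and 30 without MU 1, MU 2 and MU 3). The labels do not say whether replicate numbers pair the libraries. Same-numbered deviations correlated at 0.0495, 0.0154 and −0.0744. They were not corrected for GC content, which differed in effect between libraries, so these values do not settle it. With the block, calls over all genes went from 2667 to 1093. Gpc1 and Gpc6 stayed called (limma adjusted p = 0.0134 and 0.0137), while Sdc1 (0.065) and Gpc4 (0.122) did not. With the block and GC content and length correction together, Sdc1 was called (limma adjusted p = 0.0467) and Gpc4 was not (0.0771). Over all genes, leaving out 1 library gave 1071 to 3391 calls, and 1881 genes were called with no filter. Higher and lower calls over all genes were 1012 and 1655 as deposited, and 1159 and 1229, 1277 and 1367, and 1262 and 1322 under the scalings without mtDNA-encoded genes, by median-of-ratios and by quantiles, which moved the median of all genes from −0.06 to 0.00; member calls stayed at 4 in each. The cause of these changes was not tested. Without depth, no limit of detection can be given for Gpc2 and Gpc3.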

Other observations

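Some ligand and receptor genes outside the naming rule are listed here, picked after their values were seen. Other called genes of the ligand list are not named, and the lists themselves were chosen with earlier results known. Fgf2, the classic heparan sulfate-dependent growth factor, stood at 12.04, 12.7 and 13.1 TPM in WT and at 2.27, 2.11 and 2.27 in MU (−2.08 on the log2(TPM + 1) scale, limma adjusted p = 0.000262). The chemokine genes Ccl2 (−1.92) and Cxcl1 (−1.34) fell, as did Slit2 (−1.88), Igf2 (−2.25), Hbegf (−0.99) and Lpl (−0.72). Igf2 stood at 4.06 to 6.15 TPM in WT and at most 0.292 in MU, and was tested only through the WT libraries. Among receptors, the Hedgehog co-receptor genes Gas1 (0.69) and Boc (0.94) and the tetraspanin Cd81 (0.60) rose. Boc was low in both groups, with a mean of 0.68 TPM in WT and 2.22 in MU. It reached 1 TPM only in MU, so it was tested through those libraries alone. The Wnt receptor genes Fzd1 (−0.57) and Lrp5 (−0.78) fell. Of the same receptor list, the Hedgehog genes Cdon (−0.13) and Ptch1 (0.02) did not pass. Nor did the Wnt receptor genes Fzd2 (0.09), Fzd5 (−0.41), Fzd7 (−0.20) and Lrp6 (0.21), so the named genes do not stand for either pathway. Itgb4 rose (0.71) and Itgb1 (−0.46) and Fgfrl1 (−0.60) fell. The calls of the 7 ligand genes and of Cd81 held in every alternative that tested them, and those of Gas1, Boc, Fzd1, Lrp5, Itgb4, Itgb1 and Fgfrl1 were lost in 3, 5, 2, 2, 9, 7 and 11.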
